A study of Mus musculus with 16 samples.

Results

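Transcripts of 8 genes used in synaptic scaling were followed across the 5 groups of cultured mouse cortical neurons. They were the immediate early gene Arc, the scaffold gene Homer1, the Polo-like kinase genes Plk2 and Plk3, the neuronal pentraxin genes Nptx1 and Nptx2, their membrane-bound relative Nptxr, and Nrn1, which encodes neuritin. The members were chosen by name from this pathway, with earlier results of these data known. All 8 were found, among 26371 gene symbols in the basal count table and 55304 in the silenced one. All 8 passed the filter on low counts in every comparison.

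Synaptic scaling is the slow adjustment of a neuron's excitatory synapses after its activity has been raised or lowered for many hours. When activity is high, AMPA receptors are taken off the surface, a step in which Arc acts with the endocytic machinery and Plk2 acts by phosphorylating regulators of Ras and Rap in spines. Short Homer1 transcripts, which are made on activity, take part in the same direction by uncoupling group I metabotropic glutamate receptors from their scaffold. Secreted pentraxins work at the other end: they gather AMPA receptors at the synapse from outside the cell. Several of these genes, Arc, Nptx2 and Plk2 among them, are classical activity-induced transcripts in cortex and hippocampus.

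The study reduced the nuclear pore protein Nup153 with short hairpin RNAs. Cortices of C57/BL6 embryos at embryonic day 17.5 to 19.5 were dissociated, with the embryos of 1 litter pooled as 1 replicate. Every culture, controls included, received an adeno-associated virus (AAV) with a hairpin on day 8 in vitro (DIV8) and was collected on DIV13. The groups used here were basal shNup153-1 (2 libraries), basal shNup153-2 (2 libraries) and basal shControl (4 libraries), and then silenced shNup153-2 (3 libraries) and silenced shControl (3 libraries). Silenced cultures had been given the sodium channel blocker tetrodotoxin (TTX, 1 to 2 µM) from DIV12 for 24 hours and the NMDA receptor antagonist D-AP5 (100 µM) for 6 hours. According to the labels, only cultures with a sufficient loss of Nup153 were sequenced. The promoter that drives the hairpins and the share of infected cells were not stated. Both basal hairpins were compared with the same 4 shControl libraries, so the results of the 2 hairpins are not independent of each other.

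Library totals ran between 26863535 and 56299817 counts. Levels are given per 1000000 counts (CPM) of the library total after scaling by TMM factors, on 1 scale over all 14 libraries. Nup153 itself had 17.1 and 28.0 CPM with shNup153-1 and 13.5 and 11.6 CPM with shNup153-2, against 94.6, 53.0, 77.8 and 56.9 CPM in basal shControl cultures. In silenced cultures it had 10.6, 13.4 and 9.39 CPM with shNup153-2, against 64.2, 52.1 and 61.8 CPM with shControl. The basal shControl libraries fell into pairs: the chi-square statistic per degree of freedom was 76.9 between libraries 1 and 3 and 47.0 between libraries 2 and 4, against 134 to 272 between libraries of different pairs. Neuronal markers were high in all 14 libraries, with a summed level of 5 genes between 3158 and 5617 CPM, while 3 microglial markers that could be used summed to at most 1.57 CPM.

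In basal cultures, 4 of the 8 transcripts differed from shControl with shNup153-1 and 3 of 8 with shNup153-2, as judged by the edgeR quasi-likelihood test with Benjamini-Hochberg adjustment over all genes and a threshold of 0.05. Arc and Nptx2 were higher with either hairpin, and Plk2 was lower with either. Nrn1 was lower with shNup153-1. Of all genes tested, 13.6% were called for shNup153-1 and 9.55% for shNup153-2. The first share is over 14529 genes and the second over 19682, in separate fits. In the fit used for shNup153-1, 1812 genes were called for shNup153-2, against 1971 for shNup153-1. The median log2 fold change was -0.20 over the members with shNup153-1, beside -0.02 over all genes, and with shNup153-2 it was -0.03 over both the members and all genes. The levels by library show the separation of Arc, Nptx2 and Plk2 from shControl in basal cultures and the overlap of the 2 silenced groups.

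**Figure D1:**
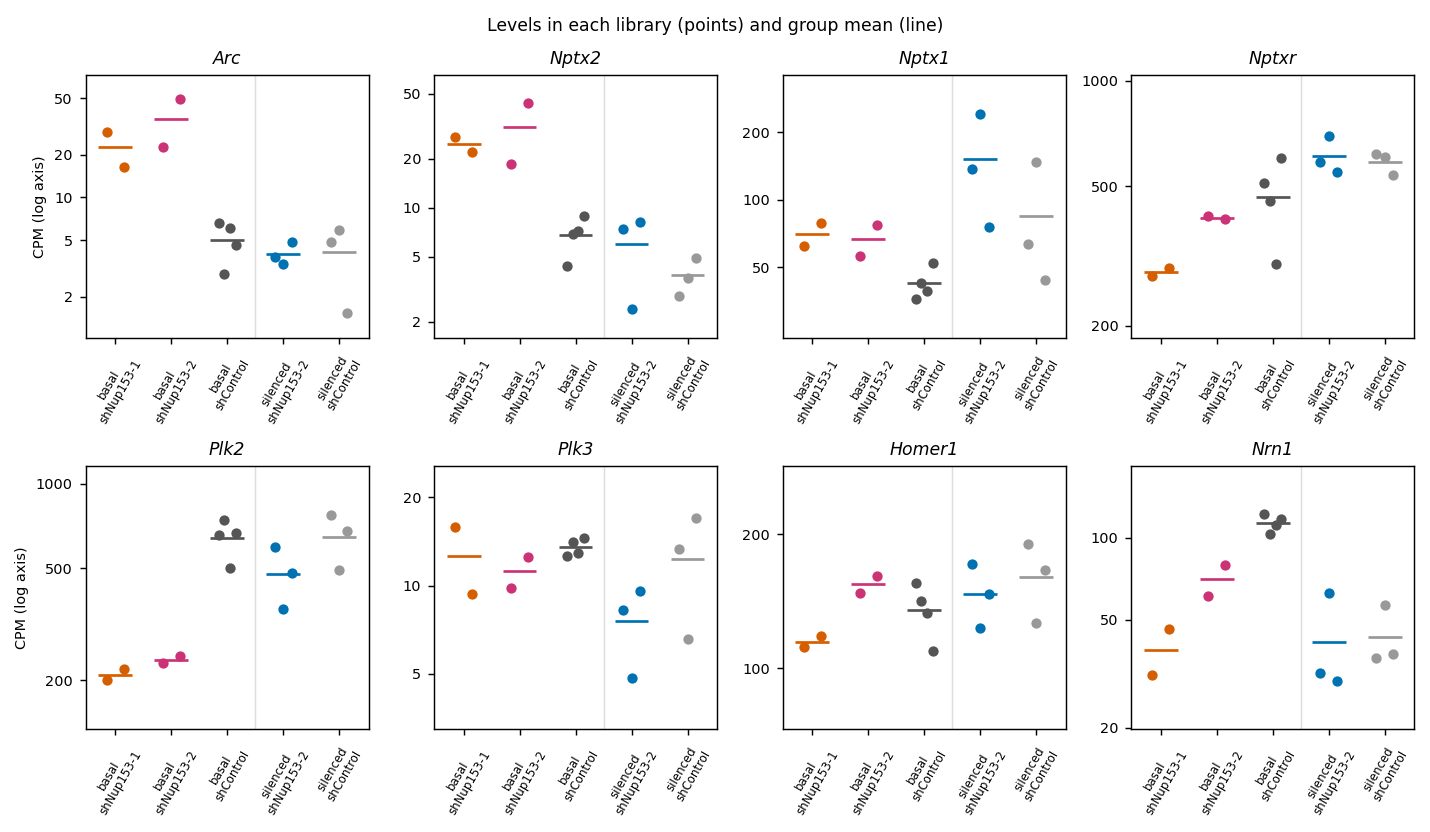
Level of each of the 8 transcripts in every library (points, CPM on a log axis) with the group mean (line), for basal shNup153-1, basal shNup153-2 and basal shControl cultures and, right of the grey line, silenced shNup153-2 and silenced shControl cultures. Basal Arc lies at 16.3 CPM or above in all 4 knockdown libraries and at 6.58 CPM or below in all 4 shControl libraries; Plk2 lies at 244 CPM or below with either hairpin and at 501 CPM or above with shControl.

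Arc encodes a capsid-forming protein of the dendrite that drives AMPA receptor endocytosis (ENSMUSG00000022602, GRCm38 chromosome 15, 74669083 to 74672570, minus strand). It had 28.8 and 16.3 CPM in shNup153-1 cultures and 22.6 and 49.1 CPM in shNup153-2 cultures, against 6.58, 2.87, 6.06 and 4.63 CPM in basal shControl cultures. Every knockdown library lay above every shControl library. On the log2 scale the fold change was 2.13 (SE 0.40, a 4.37-fold difference) with shNup153-1 and 2.80 (SE 0.38, 6.94-fold) with shNup153-2. Adjusted p was 0.012 and 0.00644 by the edgeR quasi-likelihood test. The first of these calls was lost without shNup153-1 replicate 1 (log2 fold change 1.67, adjusted p = 0.11) and the second without shNup153-2 replicate 2 (2.14, adjusted p = 0.102).

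In silenced cultures Arc was low in both groups, with 3.80, 3.40 and 4.85 CPM under shNup153-2 and 4.84, 5.91 and 1.53 CPM under shControl. The groups overlapped throughout, and the hairpin effect was -0.00 on the log2 scale with a 95% interval of -1.08 to 1.08 (adjusted p = 1.00 by the edgeR test). That interval lies below the basal estimate of 2.80 for the same hairpin. Set against basal cultures, Arc was lower in silenced shNup153-2 cultures by a log2 fold change of -3.19 (SE 0.51, adjusted p = 0.00279), and all 3 silenced libraries lay below both basal ones. With shControl the same contrast gave -0.36 (SE 0.43, adjusted p = 0.632), with overlapping libraries. The difference of the shNup153-2 effect, silenced minus basal, was -2.83 (SE 0.65), with an unadjusted p of 0.00094 and an adjusted p of 0.17 in edgeR. DESeq2 gave it an adjusted p of 0.00528 and called 285 genes for this difference. With basal shControl libraries 1 and 3 left out, edgeR gave 0.0168, but it then called 4231 genes. That choice of libraries was made after the data were seen. Of 19 alternatives, only these 2 passed for Arc.

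Basal and silenced samples stand in separate tables and are separate samples, so state, table and culture series cannot be told apart in any comparison of silenced with basal cells. Some cell type markers differed between them too. Of all genes tested, 21.7% were called between silenced and basal cultures with shNup153-2 and 12.4% with shControl. GABAergic interneuron markers (8 genes) summed to 487 to 565 CPM in silenced shNup153-2 cultures, against 1280 to 1335 CPM in basal ones, and to 437 to 498 CPM in silenced shControl cultures, against 746 to 1370 CPM in basal ones. Of these 8 markers, 3 were lower in silenced shNup153-2 and 5 in silenced shControl cultures, while 5 and 3 of 10 oligodendrocyte lineage markers were higher. Astrocyte markers (7 genes) summed to 86.8 to 654 CPM in silenced shNup153-2 cultures, against 830 to 1129 CPM in basal ones, and to 99.3 to 675 CPM in silenced shControl cultures, against 192 to 1016 CPM in basal ones, with 1 of 7 lower in each comparison. The part of these markers in the results on the members was not tested.

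Nptx2 encodes the secreted, activity-induced pentraxin also called Narp (ENSMUSG00000059991, GRCm38 chromosome 5, 144545902 to 144557478, plus strand). It had 26.97 and 22.1 CPM with shNup153-1 and 18.4 and 43.7 CPM with shNup153-2, against 4.36, 6.92, 7.20 and 8.86 CPM in basal shControl cultures. As with Arc, no basal knockdown library overlapped the shControl libraries. Nptx2 thus stood above shControl by a log2 fold change of 1.82 (SE 0.36, adjusted p = 0.0139) with shNup153-1 and 2.15 (SE 0.37, adjusted p = 0.0146) with shNup153-2 by the edgeR quasi-likelihood test. Without shNup153-1 replicate 1 the value for that hairpin was 1.67 (adjusted p = 0.0988). Without shNup153-2 replicate 1 it was 2.64 for that hairpin (adjusted p = 0.056), and without shNup153-2 replicate 2, the library with the highest level, it was 1.41 (adjusted p = 0.182).

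Silenced cultures held 7.41, 2.37 and 8.11 CPM of Nptx2 under shNup153-2 and 2.86, 3.72 and 4.94 CPM under shControl. Libraries of the 2 groups overlapped, and the log2 fold change of 0.66 (SE 0.45, 95% interval -0.41 to 1.73) did not pass the edgeR test (adjusted p = 0.485). Relative to basal cultures, Nptx2 was lower in silenced shNup153-2 cultures, with a log2 fold change of -2.40 (SE 0.49, adjusted p = 0.00778), a call that was lost without basal shNup153-2 replicate 2 (-1.64, adjusted p = 0.102). With shControl its value was -0.88 (SE 0.42, adjusted p = 0.2). The difference of the hairpin effect between states was -1.52 (SE 0.63) and had an adjusted p of 0.4 in edgeR.

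Nptx1 encodes the other secreted pentraxin, which depends less on activity than Nptx2 (ENSMUSG00000025582, GRCm38 chromosome 11, 119538719 to 119547753, minus strand). In basal cultures it had 62.1 and 78.8 CPM with shNup153-1 and 56.2 and 77.3 CPM with shNup153-2, against 36.3, 42.5, 39.1 and 52.0 CPM with shControl. All knockdown libraries lay above all shControl libraries by a narrow margin. The log2 fold changes of 0.71 (SE 0.21, adjusted p = 0.0598) and 0.62 (SE 0.22, adjusted p = 0.109) missed the threshold in edgeR. DESeq2 called the first of them (0.72, adjusted p = 0.0201). Both passed in edgeR when basal shControl libraries 2 and 4 were left out (0.91, adjusted p = 0.0302 with shNup153-1 and 0.81, adjusted p = 0.0258 with shNup153-2). That choice was made after the data were seen. It raised the genes called from 1971 to 2587 for shNup153-1 and from 1880 to 3406 for shNup153-2.

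In silenced cultures Nptx1 reached 137, 241 and 76.0 CPM with shNup153-2, against 63.3, 147 and 43.7 CPM with shControl. The groups overlapped, yet within each replicate number the knockdown library was the higher one, by 2.16-, 1.64- and 1.74-fold. Same-numbered silenced libraries deviated together across genes, so the comparison was also fitted with the replicate number as a block. The log2 fold change was 0.87 without the block (SE 0.54, adjusted p = 0.437) and 0.90 with it (SE 0.09, adjusted p = 0.00125, edgeR). Silenced cultures were above basal ones by 1.15 with shNup153-2 (SE 0.51, adjusted p = 0.113) and 0.94 with shControl (SE 0.41, adjusted p = 0.154), neither of which passed.

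The balance of the 2 secreted pentraxins differed between groups. Per kilobase of exon, the ratio of Nptx2 to Nptx1 was 0.894 and 0.576 with shNup153-1 and 0.674 and 1.16 with shNup153-2, against 0.247, 0.335, 0.378 and 0.35 in basal shControl cultures. In silenced cultures it was 0.112, 0.0203 and 0.22 with shNup153-2 and 0.093, 0.0522 and 0.233 with shControl. All 4 basal knockdown libraries had a higher ratio than any other library, and every silenced library lay below every basal one. The ratio was formed after the values were known and carries no test.

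Nptxr, the membrane-anchored pentraxin that binds the secreted forms, did not pass the test in any comparison. It had 277 and 292 CPM with shNup153-1 and 412 and 404 CPM with shNup153-2, against 511, 454, 299.9 and 601 CPM in basal shControl cultures. The shNup153-1 libraries lay below all shControl libraries (log2 fold change -0.74, SE 0.27, edgeR adjusted p = 0.108), while those with shNup153-2 lay within their range (-0.23, SE 0.29, adjusted p = 0.62). Without shControl library 3, the lowest of the 4, the value for shNup153-1 was -0.88 with an adjusted p of 0.0312. Silenced cultures had 586, 695 and 549 CPM with shNup153-2 and 618, 606 and 539 CPM with shControl. In shNup153-2 cultures all 3 silenced libraries lay above both basal ones. The log2 fold change of 0.55 (SE 0.25, edgeR adjusted p = 0.121) did not pass with all libraries. It passed only without basal shControl replicate 3 (adjusted p = 0.0402), without libraries 1 and 3 (0.0247) and with the replicate block (0.0348). Libraries 1 and 3 were chosen after the data were seen, and 8103 genes were then called, against 4548. Replicate numbers did not pair silenced with basal libraries: shControl residual correlations were 0.165, -0.275 and -0.297. Npcd, annotated on the same strand, shares 17.2% of the exon bases of Nptxr. How reads on these bases were counted was not stated, so their effect on the count of Nptxr is unknown.

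Plk2 encodes the kinase that marks spine regulators for degradation when activity is raised (ENSMUSG00000021701, GRCm38 chromosome 13, 110395046 to 110400844, plus strand), and Plk3 is its paralogue on chromosome 4 (117128655 to 117133963, minus strand). Their promoters are shown because Plk2 was the member most reduced with both hairpins while Plk3 was not called in basal cultures. The sequences are from RefSeq (GRCm38.p6) and run from 250 bases before to 50 bases after the annotated start, on the strand of the gene, at chr13:110394794-110395093 for Plk2 and chr4:117133914-117134213 for Plk3. Capitals mark the cAMP response element (CRE, TGACGTCA) and its core (TGACG), searched on both strands. The core is part of the full element, and CGTCA is its reading on the opposite strand.
Plk2: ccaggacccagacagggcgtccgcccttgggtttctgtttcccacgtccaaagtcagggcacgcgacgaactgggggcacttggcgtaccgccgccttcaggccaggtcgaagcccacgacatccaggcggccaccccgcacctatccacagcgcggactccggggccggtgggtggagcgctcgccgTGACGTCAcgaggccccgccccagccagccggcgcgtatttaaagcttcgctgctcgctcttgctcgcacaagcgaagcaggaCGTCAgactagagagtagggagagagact
Plk3: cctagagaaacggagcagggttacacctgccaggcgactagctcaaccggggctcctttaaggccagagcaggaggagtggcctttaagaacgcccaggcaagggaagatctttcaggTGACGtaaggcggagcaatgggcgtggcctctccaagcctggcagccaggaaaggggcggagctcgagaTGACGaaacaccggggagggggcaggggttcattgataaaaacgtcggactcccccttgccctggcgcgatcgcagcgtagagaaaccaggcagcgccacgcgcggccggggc
Plk2 holds a full CRE whose first base is at position -62 from the start, and a core on the opposite strand at position 22. Plk3 holds cores at positions -132 and -63 and no full CRE in this window. Of 32851 promoters of the same length, 1.79% hold a full CRE and 20.8% a core. The first of 2 Homer1 entries in the same table, chr13:93303507-93303806, holds cores at -56, -40 and -14. Motifs named AP-1, CArG, MEF2, EGR and TATA were searched as well and had no match in the promoters of Plk2, Plk3 or Homer1. No other member was matched in the table, and the matches are a description of letters only.

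In basal cultures Plk2 had 200 and 218 CPM with shNup153-1 and 229 and 244 CPM with shNup153-2, against 659, 743, 501 and 666 CPM with shControl. The knockdown libraries of both hairpins lay well below all shControl libraries and close to each other. The fold change on the log2 scale was -1.64 with shNup153-1 (SE 0.22, adjusted p = 0.00354) and -1.47 with shNup153-2 (SE 0.24, adjusted p = 0.012), by the edgeR quasi-likelihood test. Expressed as a fold, Plk2 stood at 0.321 and 0.36 of the shControl level. Without shNup153-2 replicate 1 or 2 the call for that hairpin was lost (adjusted p = 0.17 or 0.148) at log2 fold changes of -1.44 and -1.51. As these are bulk samples, fewer cells that express a gene and less RNA per cell cannot be told apart, for this gene or any other.

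With activity blocked, Plk2 had 594, 357 and 483 CPM under shNup153-2 and 771, 491 and 677 CPM under shControl. The ranges overlapped, but the knockdown library was lower within each replicate number, at 0.77, 0.73 and 0.71 of its shControl partner. The log2 fold change was -0.42 in both fits, with SE 0.24 and adjusted p = 0.391 without the block and SE 0.07 and adjusted p = 0.0079 with it (edgeR). Compared with basal cultures, Plk2 was higher in silenced shNup153-2 cultures (0.98, SE 0.26, adjusted p = 0.0233), and all 3 silenced libraries lay above both basal ones. This call was lost without basal shNup153-2 replicate 1 or 2 (adjusted p = 0.145 or 0.111) and without silenced shNup153-2 replicate 1 or 3 (0.0795 or 0.0592). In shControl cultures silenced and basal libraries overlapped, with a log2 fold change of -0.04 (SE 0.21, adjusted p = 0.92). The difference of the hairpin effect between states was 1.03 (SE 0.34), with an unadjusted p of 0.0101 and an adjusted p of 0.322 in edgeR. Without basal shControl libraries 1 and 3 it was 1.13 with an adjusted p of 0.0379, in a fit that called 4231 genes. Those libraries were chosen after the data were seen, and this was the 1 alternative of 19 that passed.

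Plk3, a stress-responsive kinase of the same family, was expressed at a much lower level. It had 15.8 and 9.37 CPM with shNup153-1 and 9.81 and 12.5 CPM with shNup153-2, against 12.6, 14.1, 12.9 and 14.5 CPM in basal shControl cultures. No basal difference passed the edgeR test (log2 fold changes -0.13, adjusted p = 0.774, and -0.31, adjusted p = 0.346). In silenced cultures it had 8.24, 4.85 and 9.62 CPM with shNup153-2, against 13.3, 6.59 and 17.1 CPM with shControl. Each knockdown library was below its partner, at 0.62, 0.74 and 0.56 of it. The log2 fold change was -0.68 without the block (SE 0.39, adjusted p = 0.394) and -0.64 with it (SE 0.13, adjusted p = 0.012, edgeR). Between silenced and basal cultures Plk3 gave -0.59 with shNup153-2 (SE 0.35, adjusted p = 0.221) and -0.19 with shControl (SE 0.30, adjusted p = 0.726). Antisense Tctex1d4 covers 3.32% of the exon bases of Plk3.

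**Figure D2:**
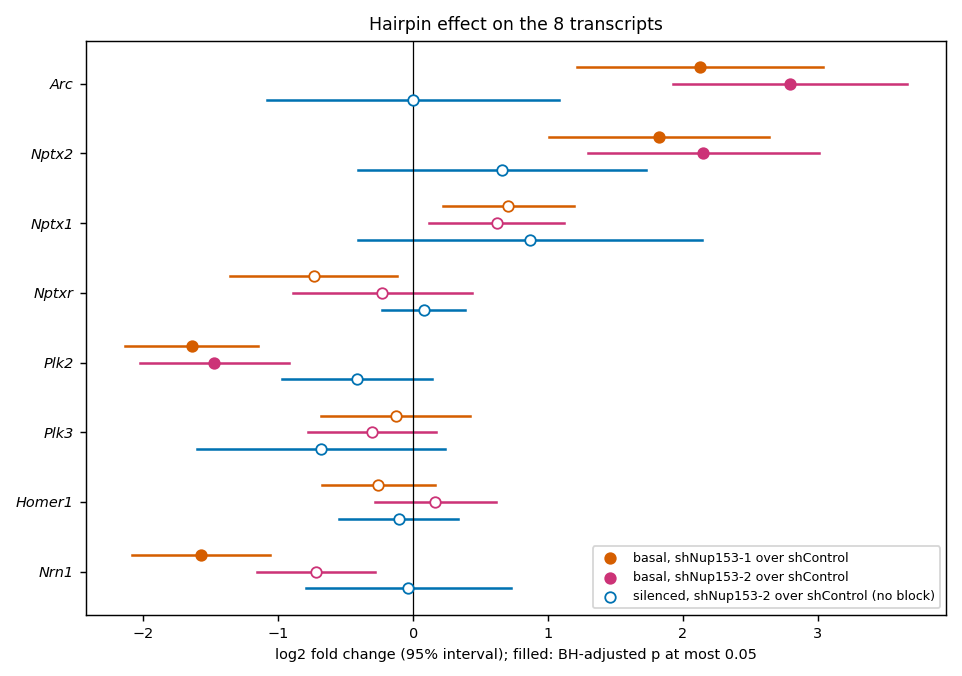
Log2 fold change of each transcript with its 95% interval for shNup153-1 over shControl in basal cultures (orange), shNup153-2 over shControl in basal cultures (pink) and shNup153-2 over shControl in silenced cultures without the replicate block (blue); filled points have an adjusted p of at most 0.05 in edgeR. Arc and Nptx2 lie right of 0 and Plk2 left of 0 with both hairpins at basal state, and every silenced interval includes 0.

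**Figure D3:**
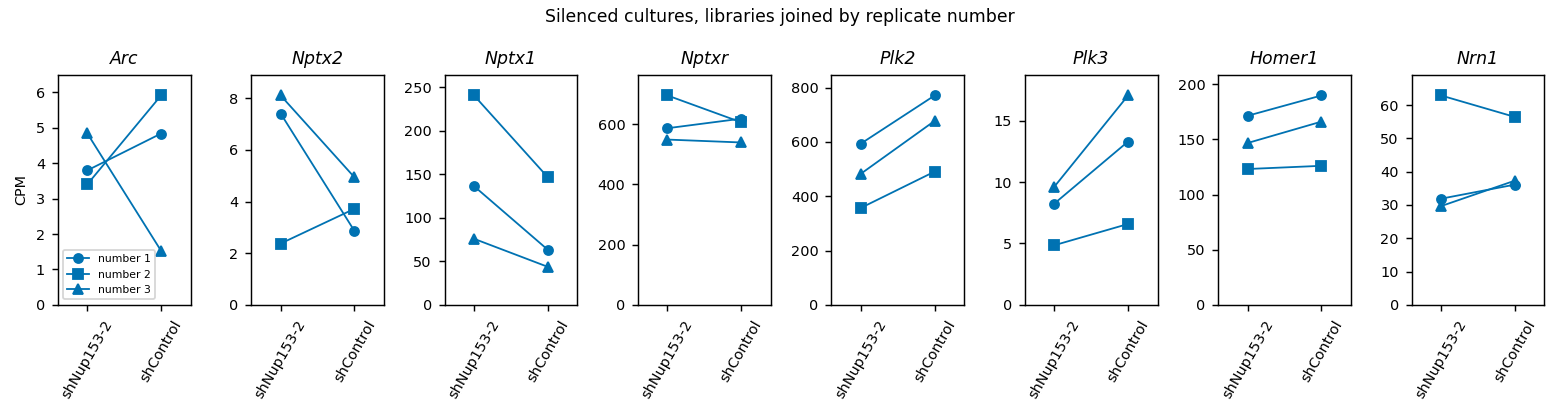
CPM of each transcript in silenced shNup153-2 (left) and silenced shControl cultures (right), with libraries of the same replicate number joined, on linear axes that start at 0. The lines of Nptx1 all fall towards shControl, those of Plk2, Plk3 and Homer1 all climb towards shControl, and those of Arc, Nptx2, Nptxr and Nrn1 run in both directions.

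Across the silenced comparison, 0 of the 8 members passed without the replicate block, where 3.45% of all genes tested were called. At an unadjusted p below 0.05 in edgeR the count was also 0 of 8 members, beside 3745 of 18965 genes. DESeq2 and limma-voom called none of the members either, beside 1845 and 656 of all genes. With the block 3 of 8 passed (Nptx1 higher, Plk2 and Plk3 lower), where 21.9% of all genes were called. The block thus raised the count of called genes from 654 to 4161 over the whole table.

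Homer1 encodes the postsynaptic adaptor that links metabotropic glutamate receptors to Shank scaffolds (ENSMUSG00000007617, GRCm38 chromosome 13, 93299635 to 93405129, plus strand). Its spread over the 12 shNup153-2 and shControl libraries, an SD of 0.23 in log2 CPM, was the smallest of the 8. It had 111 and 118 CPM with shNup153-1 and 148 and 161 CPM with shNup153-2, against 155, 142, 133 and 109 CPM in basal shControl cultures. Silenced cultures had 172, 123 and 147 CPM with shNup153-2 and 189.9, 126 and 166 CPM with shControl. No comparison passed the edgeR test. The 95% intervals of the hairpin effects on the log2 scale were -0.68 to 0.16 for shNup153-1, -0.28 to 0.61 for shNup153-2 and -0.55 to 0.34 in silenced cultures. These counts add up all transcripts of the gene, so the short activity-induced form and the long forms were not separated.

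Nrn1 encodes neuritin, a small membrane-anchored protein induced by activity that promotes neurite and synapse growth (ENSMUSG00000039114, GRCm38 chromosome 13, 36725361 to 36735131, minus strand). It had 31.3 and 46.3 CPM with shNup153-1 and 61.0 and 79.4 CPM with shNup153-2, against 122, 103, 111 and 117 CPM in basal shControl cultures. All knockdown libraries lay below all shControl libraries, and both shNup153-1 libraries lay below both shNup153-2 libraries. The log2 fold change was -1.57 with shNup153-1 (SE 0.23, adjusted p = 0.00489) and -0.72 with shNup153-2 (SE 0.19, adjusted p = 0.0514), by the edgeR quasi-likelihood test. For shNup153-2 DESeq2 and limma-voom gave adjusted p of 0.00596 and 0.0438. EdgeR gave 0.0482 without basal shControl replicate 2, 0.0282 without libraries 2 and 4 and 0.0127 without libraries 1 and 3. The library pairs were chosen after the data were seen. Without them edgeR called 3406 and 9076 of all genes for this hairpin, against 1880 with all libraries. The difference between the hairpins, shNup153-2 minus shNup153-1, was 0.85 (SE 0.24, adjusted p = 0.0802 in edgeR and 0.0174 in DESeq2).

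In silenced cultures Nrn1 had 31.9, 62.9 and 29.7 CPM with shNup153-2 and 36.1, 56.4 and 37.3 CPM with shControl. These groups overlapped (log2 fold change -0.04, SE 0.32, edgeR adjusted p = 0.97). Nrn1 was the 1 member called between silenced and basal shControl cultures, where 12.4% of all genes tested were called. It was lower in silenced cultures, with a log2 fold change of -1.44 (SE 0.26, adjusted p = 0.00537), with all 3 silenced libraries below all 4 basal ones. In shNup153-2 cultures the silenced libraries overlapped the basal ones and the log2 fold change of -0.80 (SE 0.30) did not pass (adjusted p = 0.0706), except without silenced shNup153-2 replicate 2 (-1.22, adjusted p = 0.00936) and with limma-voom (-0.88, adjusted p = 0.046). Antisense Fars2 shares 22.3% of the exon bases of Nrn1; the sources do not say whether counting used strand, so reads of the 2 genes cannot be told apart there.

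**Figure D4:**
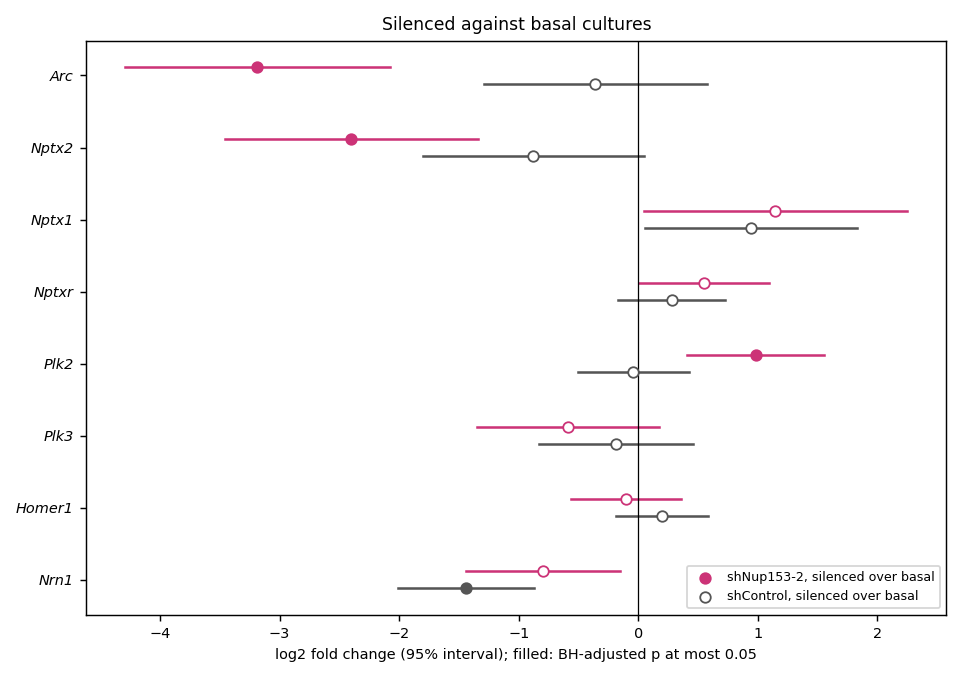
Log2 fold change of each transcript, silenced over basal, with its 95% interval, in shNup153-2 cultures (pink) and in shControl cultures (grey); filled points have an adjusted p of at most 0.05 in edgeR. Arc and Nptx2 lie furthest left in shNup153-2 cultures, Plk2 lies right of 0 there and close to 0 in shControl cultures, and Nrn1 lies left of 0 in both.

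Between silenced and basal shNup153-2 cultures, 3 of 8 members passed (Plk2 higher, Arc and Nptx2 lower), where 21.7% of all genes tested were called. For the difference of the hairpin effect between states, edgeR called 0 of the 8 members and 0 of all 20926 genes. At an unadjusted p below 0.05 it counted 3 members (Arc, Plk2, Nptx2) and 2393 genes, DESeq2 called 285 genes and limma-voom 1. Between the hairpins at basal state edgeR called 0 of 8 members, where 4.48% of genes were called. At an unadjusted p below 0.05 it counted 1 member, Nrn1, beside 3747 of 14529 genes. DESeq2 called that member, in a fit that called 2114 genes.

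Some cell type markers also differed from shControl at basal state. Of all genes tested, 13.6% were called for shNup153-1 and 9.55% for shNup153-2. The summed level of 9 oligodendrocyte lineage markers was 721 to 723 CPM with shNup153-1, against 91.0 to 247 CPM with shControl, and 7 of the 9 passed as higher. With shNup153-2 it was 218 to 325 CPM, and none of the 6 tested passed. Excitatory neuron markers (6 genes) summed to 476 to 706 CPM with shNup153-1 and 1186 to 1222 CPM with shNup153-2, against 758 to 1032 CPM with shControl; 2 of 6 were lower with shNup153-1, and 1 was higher and 1 lower with shNup153-2. GABAergic markers summed to 1485 to 2269 CPM and 1280 to 1335 CPM with shNup153-1 and shNup153-2, against 746 to 1370 CPM with shControl. Of these 8 markers, 1 was higher with shNup153-1 and none was called with shNup153-2. Astrocyte markers (7 genes) summed to 604.5 to 1586 CPM and 830 to 1129 CPM, against 192 to 1016 CPM. Here too 1 was higher with shNup153-1 and none was called with shNup153-2. None of the markers used was at 0 in every library of a group. Their part in the results on Arc, Nptx2, Plk2 and Nrn1 was not tested.

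Partners of the 8 genes were read from 6 lists by role, 59 genes in all, of which 55 were tested at basal state. These lists were also chosen with earlier results of these data known, so their counts are not independent of the data. With shNup153-1, 3 were higher and 1 was lower than shControl by the edgeR test, where 13.6% of all genes tested were called. Shank3, a postsynaptic scaffold that binds Homer proteins, rose (log2 fold change 1.77, SE 0.25, adjusted p = 0.00438), as did Sh3gl3, an endophilin that works with Arc in endocytosis (1.28, SE 0.23), and Bdnf, the neurotrophin (1.98, SE 0.42). Gria1, the GluA1 AMPA receptor subunit, fell (-1.11, SE 0.25, adjusted p = 0.0241). This call was lost without shNup153-1 replicate 1 or 2 (adjusted p = 0.145 or 0.101) and without shControl replicate 1 or 4 (0.0528 or 0.0642), and those of Sh3gl3 and Bdnf without shNup153-1 replicate 1 (0.0952 and 0.137).

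With shNup153-2, 10 of the 55 were higher and 2 were lower than shControl, where 9.55% of all genes tested were called. Of 8 scaffold and receptor partners of Homer, 4 rose and none fell, with a median log2 fold change of 0.78 over the 8, beside -0.03 over all genes. They were Shank3 (2.14, SE 0.19), Shank2 (2.25, SE 0.29), Shank1 (2.01, SE 0.29) and Dlg4, which encodes PSD-95 (0.93, SE 0.22). Of 12 other scaling factors 5 rose, Bdnf (3.05, SE 0.41) and Epha4 (0.90, SE 0.19) among them. Cacng8, an auxiliary AMPA receptor subunit, rose by 0.89 (SE 0.18) as the 1 called gene of 19 in the list on AMPA receptor endocytosis. Homer3 fell by 1.91 (SE 0.32) and Plk1, a mitotic kinase, fell by 1.90 (SE 0.33). Without shNup153-2 replicate 2 each of the genes named here had an adjusted p above 0.05, between 0.0558 for Shank3 and 0.302 for Dlg4. Without shNup153-2 replicate 1 that held for all but Shank3 and Bdnf (0.0808 for Shank2 to 0.275 for Epha4), and without shControl replicate 4 for Dlg4, Cacng8 and Epha4 (0.0753 to 0.117).

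In silenced cultures 2 of the 55 were higher and 2 lower with shNup153-2 than with shControl without the replicate block, where 3.45% of all genes were called. With the block 19 were higher and 6 lower, where 21.9% were called. Shank3 rose by 0.86 (SE 0.13, edgeR adjusted p = 0.0268) and Akap5, which anchors kinases at AMPA receptors, by 0.75 (SE 0.14, adjusted p = 0.0399). Rapgef2, a Rap activator and Plk2 substrate, fell by 0.90 (SE 0.14, adjusted p = 0.0297). Without the block, each of these 3 calls was lost when at least 4 of the 6 libraries were left out 1 at a time, with adjusted p values up to 0.172. With the replicate block all 3 passed over all libraries, at adjusted p of 0.00218 for Shank3, 0.00317 for Akap5 and 0.00186 for Rapgef2.

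Between silenced and basal cultures, 5 of the 55 were higher and 13 lower with shNup153-2, where 21.7% of all genes were called, and 7 were higher and 5 lower with shControl, where 12.4% were called. Itgb3, the integrin subunit used in scaling up, fell by 3.76 on the log2 scale with shNup153-2 (SE 0.36, adjusted p = 0.000309) and by 2.54 with shControl (SE 0.32, adjusted p = 0.00089). Gria4, the GluA4 subunit, fell by 1.01 with shNup153-2 (SE 0.18) and by 1.02 with shControl (SE 0.16). Gria3 fell by 1.04 with shNup153-2 (SE 0.22) and by 0.79 with shControl (SE 0.19). Both calls with shNup153-2 were lost without basal replicate 1 of that hairpin (adjusted p = 0.0658 and 0.0704), and Gria3 also without its replicate 2 (0.0551) and, with shControl, without silenced replicate 3 (0.0844). Bdnf fell by 3.51 with shNup153-2 (SE 0.44, adjusted p = 0.0007), and stood at -1.03 with shControl (SE 0.38, adjusted p = 0.0934); the difference between these, -2.48 (SE 0.56), had an adjusted p of 0.162. The Shank genes were higher in silenced shControl cultures (Shank3 1.28, SE 0.15; Shank1 1.08, SE 0.23; Shank2 1.07, SE 0.25, lost without silenced shControl replicate 1 or 3), while Shank1 was lower in silenced shNup153-2 cultures (-0.86, SE 0.27, adjusted p = 0.0392), a call lost without any of 6 single libraries. The difference of the hairpin effect between states was not called for any of the 55.

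Per kilobase of exon, Plk2 and Nptxr were the most abundant members in every group, and Arc, Nptx2 and Plk3 the least in shControl cultures. In basal shControl cultures Plk2 stood at 143 ± 22.7 CPM per kb, Nptxr at 90.2 ± 24.5, Nrn1 at 50.4 ± 3.72, Homer1 at 11.3 ± 1.61, Nptx1 at 8.14 ± 1.31, Plk3 at 5.35 ± 0.37, Nptx2 at 2.69 ± 0.73 and Arc at 1.65 ± 0.54 CPM per kb (SD, n = 4). The order differed with knockdown: at basal state Arc stood at 7.38 ± 2.88 CPM per kb with shNup153-1 and 11.7 ± 6.13 with shNup153-2 (SD, n = 2 each), above Plk3 at 4.98 ± 1.80 and 4.42 ± 0.76 CPM per kb. With shNup153-2, Homer1, Nptx1, Nptx2 and Arc lay within each other's spread, between 11.7 and 12.9 CPM per kb. In silenced cultures Arc and Nptx2 were lowest again, at 1.31 ± 0.24 and 2.35 ± 1.23 CPM per kb with shNup153-2 and 1.34 ± 0.75 and 1.51 ± 0.41 with shControl (SD, n = 3 each). These levels divide by all annotated exon bases, so they understate genes whose long untranslated ends are little used.

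The genes whose profiles over the 12 basal and silenced shNup153-2 and shControl libraries were most like each member were ranked by the root-mean-square (RMS) difference of centred log2 CPM values. For Arc they were the immediate early genes Egr1 (RMS 0.45) and Nr4a1 (0.52) and the protocadherin gene Pcdh20 (0.53), beside a spread of Arc itself of 1.31 (SD, log2 CPM). For Nptx2, with a spread of 1.15, they were Diras2 (0.48), Adrb1 (0.49) and the activity-induced transcription factor gene Npas4 (0.50). Plk2 was most like Rnf2, Ube2g2 and Bid (0.19 to 0.23, spread 0.59), and Nptx1 was most like Car11, Icam5 and Olfm1 (0.34 to 0.37, spread 0.86). Among the members themselves the smallest differences were between Homer1 and Nptxr (0.40) and between Homer1 and Plk3 (0.48). The spreads of Homer1, Nptxr and Plk3 themselves were only 0.23, 0.34 and 0.52. Arc and Nptx2, with spreads of 1.31 and 1.15, differed by 0.80. The measure grows with the spread of the genes, so it does not rank how closely these pairs moved together. The ranking rests on groups in which the members already differ and carries no test.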

How the data were processed

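Poly(A) RNA of mouse cortical neurons was sequenced as strand-specific paired reads of 100 bases, per the labels. The authors deposited raw counts per gene, made with featureCounts 2.0.1 on mm10 after FastQC, per the submitters' processing notes. Aligner, gene annotation and strand option were not given in the sources used here. Groups follow sample titles; the descriptions of the shNup153 samples name the control virus. A pair of columns in the basal table carry the same name, and these 2 were not used. The shNup153-1 columns are out of register with the gene names far down the table: their correlation with shControl across genes was 0.9745 up to line 16399 and 0.0871 from line 16420, against 0.9732 and 0.9702 for shNup153-2. Comparisons with shNup153-1 therefore used lines 1 to 16399, where all 8 members stand, and the other comparisons left those columns out.

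Counts were tested in R 4.3.3 with edgeR 4.0.16: filterByExpr with a minimum count of 10, TMM scaling, the quasi-likelihood F test and Benjamini-Hochberg adjustment over all genes tested at 0.05. The 3 basal groups were fitted together for shNup153-1, the 2 groups alone for shNup153-2 and for silenced cultures, and 12 libraries jointly for comparisons across states. DESeq2 1.42.0, limma 3.58.1 (voom), other scaling, no filter, a replicate block and leaving out libraries were alternatives. Fits were also run on simulated counts drawn independently for each library. Deviations shared between libraries were therefore not part of that check. The printed CPM levels and their ratios carry no prior count. A prior count of 2 was used for the log2 CPM values of the profile comparison and of the residual correlations. Same-numbered silenced libraries had residual correlations of 0.421, 0.669 and 0.754 across genes. The silenced comparison was therefore also fitted with the replicate number as a block. Silenced estimates and intervals are from the fit without the block unless the block is named. Basal numbers were not taken as pairs. A replicate is 1 litter, per the labels. Counts measure reads without molecular identifiers, so the depth limits only counting error.

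The members and gene lists were chosen with earlier results of these data known. Named are all 8 members, Nup153, up to 4 called genes per list and comparison with the smallest p, and the 3 most similar genes of each member, of which those for 4 members are printed. 1 listed gene is not reported here. Genome coordinates are from GENCODE on GRCm38.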

Additional observations from a re-analysis of the deposited data

How the results depend on the processing

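The alternatives were other scaling, no filter on low counts, DESeq2, limma-voom, the replicate block, other sets of groups in the fit and the loss of single libraries. Leaving out basal shControl libraries 2 and 4, or 1 and 3, was added after the data were seen. Over the members and alternatives, 846 values kept direction and call, 16 lost the call, 23 gained it and 27 changed sign, none of the last among called values. With 2 basal libraries per hairpin, a group left with 1 library was assumed to vary like the other groups. The cause of a changed count was not tested.

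Genes called under DESeq2 numbered 3146 for shNup153-1 and 3624 for shNup153-2 against basal shControl, 2114 between the hairpins (1 member), 1845 in silenced cultures and 285 for the difference between states (1 member); limma-voom called 1 there, and the fit without a filter 3. The fit of shNup153-1 and shControl alone called 1203.

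The replicate block, with numbers that did not pair basal libraries (residual correlations of -0.662 and -0.722 for shNup153-1 with shControl and of 0.254 and -0.035 for shNup153-2), gave 0 genes and 0 members for shNup153-1 and 0 genes between the hairpins; adjusted p was 0.223 for Arc, 0.171 for Nptx2, 0.165 for Plk2 and 0.168 for Nrn1. Across states the numbers did not pair libraries either, with residual correlations of 0.165, -0.275 and -0.297 between silenced and basal shControl. The block called 5 members between silenced and basal shNup153-2 cultures (Nptx1 and Nptxr added) and 2 genes for the difference between states. In silenced cultures, where each library correlated best with its own number, it called 4161 genes and 3 members, and Arc stood at 0.136 there, as it did at 0.225 with limma-voom.

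Without basal shControl libraries 2 and 4, counts were 3406 for shNup153-2 (5 members), 1877 between hairpins, 8148 for silenced against basal shNup153-2 cultures and 6263 for the same with shControl, and 13 for the difference between states, and Plk2 in shControl cultures stood at 0.12. Without libraries 1 and 3 they were 9076 for shNup153-2, 1628 between hairpins, 8103 for silenced against basal shNup153-2 and 4231 for the difference between states (2 members), and Arc in shControl cultures stood at 0.09.

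Leaving out single libraries gave 356 to 2050 genes and 2 to 5 members for shNup153-1, 15 to 2211 genes and 0 to 4 members for shNup153-2, and 0 to 998 genes between the hairpins. In silenced cultures it gave 4 to 659 genes. For silenced against basal cultures it gave 841 to 6119 genes and 1 to 4 members with shNup153-2 and 1069 to 3426 genes with shControl, and for the difference between states 0 to 12 genes.

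Log2 fold changes that were not called and changed sign without single libraries were these. With shNup153-1 Plk3 ranged from -0.55 to 0.19. Between the hairpins Plk3 ranged from -0.50 to 0.24, Nptx1 from -0.33 to 0.12 and Nptx2 from -0.42 to 0.83. In silenced cultures Arc ranged from -0.41 to 0.35, Homer1 from -0.26 to 0.018, Nptxr from -0.031 to 0.15 and Nrn1 from -0.47 to 0.19. For silenced against basal shControl cultures Arc ranged from -0.71 to 0.051, Plk2 from -0.18 to 0.14 and Plk3 from -0.48 to 0.13. Homer1 ranged from -0.24 to 0.017 with shNup153-2, and the difference between states for Nptx1 from -0.29 to 0.84.

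Arc, Nptx2 and Plk3 have the lowest counts among the members; the lowest level of any was 1.53 CPM, for Arc in a silenced shControl library.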

Other observations

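Per kilobase of exon, the ratio of Plk2 to Plk3 was 7.13 and 13.1 with shNup153-1 and 13.2 and 11 with shNup153-2, against 29.5, 29.7, 21.8 and 25.8 in basal shControl cultures. No knockdown library reached the lowest shControl value. In silenced cultures the ratio was 40.6, 41.4 and 28.3 with shNup153-2 and 32.7, 42.0 and 22.4 with shControl, and these groups overlapped. The summed level of the secreted pentraxins Nptx1 and Nptx2 relative to Nptxr was 0.421 and 0.421 with shNup153-1 and 0.226 and 0.411 with shNup153-2, against 0.0877, 0.124, 0.178 and 0.116 in basal shControl cultures. Each basal knockdown library lay above each basal shControl library. Silenced cultures had 0.257, 0.35 and 0.167 with shNup153-2, against 0.111, 0.252 and 0.099 with shControl, and within each replicate number the knockdown library was the higher one. These ratios were formed after the values of their members were known and carry no test.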
